A study of Mus musculus with 3 samples.

Results

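Neuropilin 1, neuropilin 2, 4 semaphorins and 1 plexin were followed in CD8 T cells of mice: Nrp1, Nrp2, Sema4a, Sema4b, Sema4d, Sema7a and Plxnd1. They were taken as all probe sets to which the array annotation gives 1 of these symbols alone, which were 18 of 45101 probe sets and 7 of 18194 named genes. The genes were picked with differences between these same arrays known, so their values are given as a description. The study hybridised 1 array to each of 3 populations from tissue labelled MLN (in the study, the mesenteric lymph node). Of these, VILLIN-HA/CL4-TCR as well as Villin-HA + CL4-TCR pair HA, the influenza hemagglutinin under the gut epithelial villin promoter, with CD8 T cells that carry the CL4 T cell receptor for HA. CL4-TCR cells carry the same receptor, which all 3 groups share, without the HA transgene in their name. The submitters list ordinary, in vivo activated and in vivo formed regulatory CD8 T cells, and the labels do not say which HA array is which. The sources used here do not give strain, age, sex or the number of mice behind each array.

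Neuropilins are transmembrane co-receptors without a catalytic domain of their own. They bind secreted semaphorins and VEGF, and they signal together with plexins, whose cytoplasmic part acts on small GTPases of the Ras and Rap families and on cell adhesion. Class 4 and class 7 semaphorins sit in the membrane of lymphocytes and act mostly between cells: Sema4a and Sema4d engage receptors on neighbouring T, B and myeloid cells, and Sema7a binds integrins. In regulatory CD4 T cells, Nrp1 is a surface marker of cells formed in the thymus and a receptor for Sema4a.

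Signals are MAS5 intensities on a linear scale, and a floor of 31.7, the median of all values, stood for signals too low to order. A gene counts as measured if 1 of the 2 signals compared exceeded this floor, and as higher or lower at a difference of 2-fold, a log2 difference of 1. Each gene was read by its brightest probe set, called the chosen one. The arrays had median signals of 29.4 (VILLIN-HA/CL4-TCR), 35.3 (Villin-HA + CL4-TCR) and 30.6 (CL4-TCR), and the CD8 co-receptor gene Cd8a gave 2893, 3149 and 2714 in the same order, while Cd4 lay below the floor on all 3. These Cd8a values are of its chosen probe set. Cd8a probe set 1451673_at had 203.6, 856.7 and 212.7, past 2-fold higher in Villin-HA + CL4-TCR cells than on each other array. The remaining Cd8a probe sets stayed short of 2-fold in every comparison. Other T cell markers were less even by their chosen probe sets. Of 9 found, Cd2 (714.1, 1257.2 and 2308.3) and Lat (653.2, 1690.1 and 2432.1) were counted as lower in VILLIN-HA/CL4-TCR than in CL4-TCR cells. None of the 9 was counted between Villin-HA + CL4-TCR and CL4-TCR by its chosen probe set. Between the HA arrays, VILLIN-HA/CL4-TCR was higher in Cd5 and lower in Lat. Foxp3, of the CD4 T cell markers, had 38.2, 86.4 and 29.6. The 3′ to 5′ signal ratio of the Gapdh control probe sets, which moves with RNA integrity, was 46.2, 3.35 and 18.4. That of the beta-actin control probe sets was far more even, at 2.46, 1.80 and 1.98. The part of RNA integrity in the differences was not tested. Xist, the RNA of the inactive X chromosome, had signals of 2.5, 1339 and 5442.5, and the Y-linked Eif2s3y 1496, 746.9 and 13.4. The Villin-HA + CL4-TCR array thus held transcripts of both sexes, VILLIN-HA/CL4-TCR only the Y-linked one and CL4-TCR only Xist above the floor. Group and sex therefore cannot be told apart. By the RefSeq table the 7 genes lie on chromosomes 1, 3, 6, 7, 8, 9 and 13. No group had a second array: each difference is between single arrays, and a batch of labelling or hybridisation cannot be told apart from the group.

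Of the 7 genes, 6 were measured between VILLIN-HA/CL4-TCR and CL4-TCR, and 3 were counted: Nrp1 and Sema7a higher, Sema4a lower. Over all measured genes 14.1% were counted in this comparison, 7.43% as higher and 6.63% as lower. Between Villin-HA + CL4-TCR and CL4-TCR 6 were measured and 3 counted, Sema7a as higher and Sema4a and Sema4b as lower, against 21.4% of all measured genes, 11.9% higher and 9.53% lower. In VILLIN-HA/CL4-TCR against Villin-HA + CL4-TCR cells all 7 were measured, and Nrp1 and Sema4a were counted, both higher, against 15.1% of all genes, 6.14% higher and 8.95% lower. Because the genes were picked from these differences, nothing is read from their counts. The first and second comparisons share the CL4-TCR array, so a chance value on that array would enter both. With all arrays scaled to the same median signal, 38.2% of all counted genes were higher in Villin-HA + CL4-TCR cells than in CL4-TCR cells in place of 55.6%, and 67.3% were higher in VILLIN-HA/CL4-TCR cells than in Villin-HA + CL4-TCR cells in place of 40.7%.

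**Figure D1:**
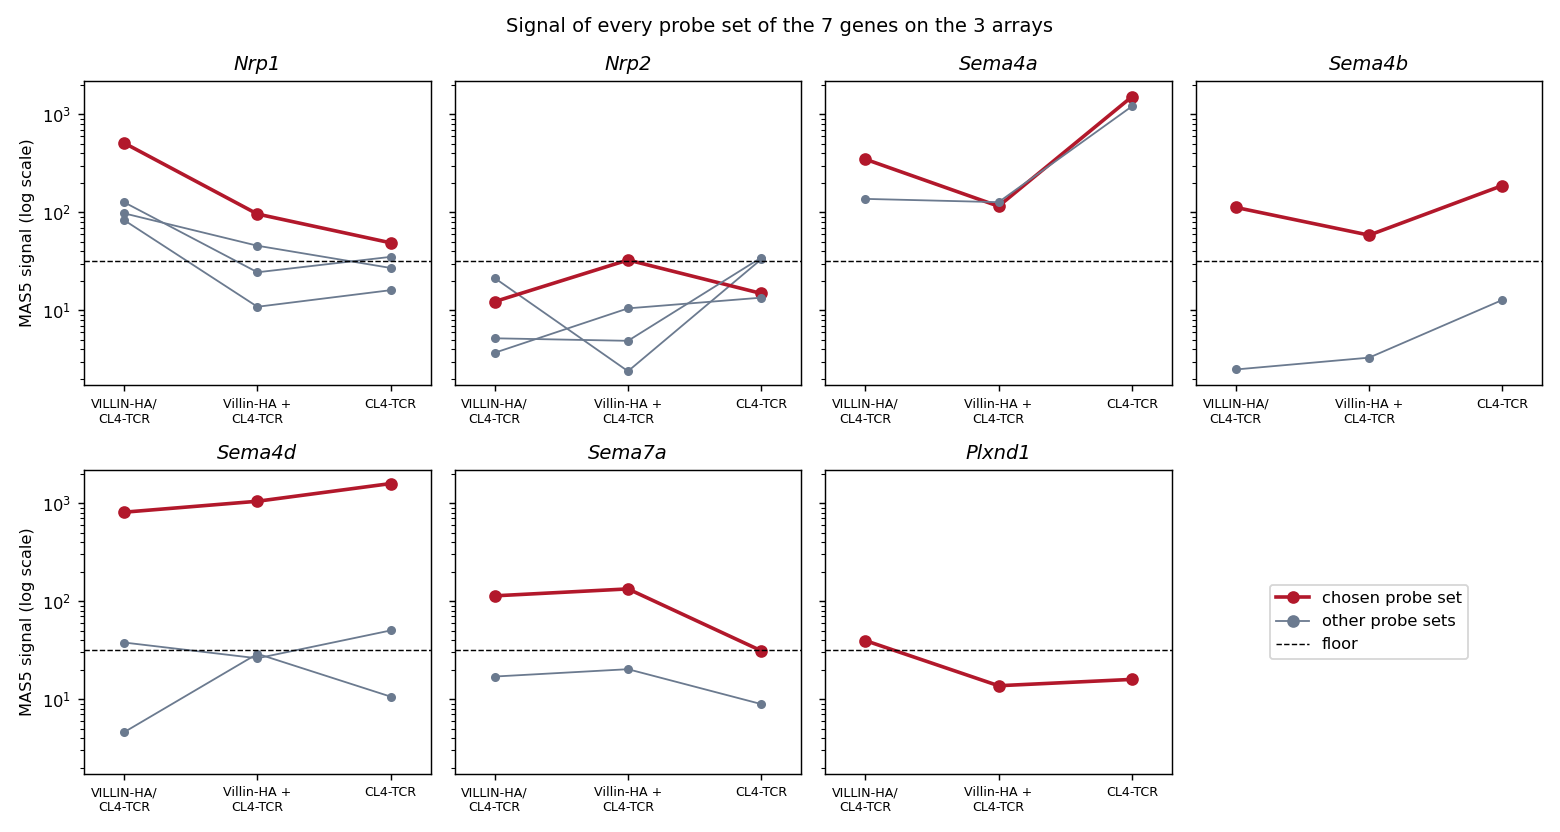
MAS5 signal (log axis) of each of the 18 probe sets in VILLIN-HA/CL4-TCR, Villin-HA + CL4-TCR and CL4-TCR cells, 1 panel per gene. Each line joins the 3 values of 1 probe set, red for the chosen one, and the dashed line is the floor of 31.7. All 4 Nrp1 probe sets are highest in VILLIN-HA/CL4-TCR cells and both Sema4a probe sets are highest in CL4-TCR cells.

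Nrp1 stood highest in VILLIN-HA/CL4-TCR cells by each of its 4 probe sets. The chosen probe set, 1448943_at, had signals of 510.0 in VILLIN-HA/CL4-TCR cells, 96.2 in Villin-HA + CL4-TCR cells and 48.9 in CL4-TCR cells, and it alone of the 4 was above the floor on all arrays. Probe set 1457198_at had 126.9, 24.5 and 35.2, 1418084_at had 97.8, 45.7 and 27.1, and 1448944_at had 83.4, 10.9 and 16.1, in the same order of arrays. The 4 thus share the array with the top signal but do not share an order of the other arrays.

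Against CL4-TCR, the VILLIN-HA/CL4-TCR signal of Nrp1 was 10.4-fold higher by the chosen probe set (log2 difference 3.38) and 3.61-fold by 1457198_at, and the remaining probe sets, with CL4-TCR at the floor, gave at least 3.09-fold and at least 2.63-fold. Only 54 of 11260 measured genes had a larger log2 difference than the chosen probe set. In this comparison the log2 differences of probe sets of the same gene had a pooled SD of 0.43, over 4175 genes. The same array was 5.30-fold above Villin-HA + CL4-TCR by the chosen probe set (log2 difference 2.41), 2.14-fold by 1418084_at, and at least 2.63-fold by each of the others, and 19 of 12081 genes had a larger difference.

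Between Villin-HA + CL4-TCR and CL4-TCR, Nrp1 was short of 2-fold. The chosen probe set gave a ratio of 1.97 (log2 difference 0.98), 1418084_at gave at least 1.44, 1457198_at gave a log2 difference of -0.15, a bound with Villin-HA + CL4-TCR at the floor, and 1448944_at lay below the floor on both arrays. Here the pooled SD between probe sets was 0.65. The study itself chose Nrp1 from these arrays, so its difference is not independent evidence.

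Some macrophage transcripts ran in the same order of arrays as the chosen Nrp1 probe set. The 11 macrophage markers had a summed signal of 1634 in VILLIN-HA/CL4-TCR cells, 911.7 in Villin-HA + CL4-TCR cells and 285.7 in CL4-TCR cells, with 8, 8 and 5 of them above the floor. Lyz2, which encodes lysozyme, had 817.3, 312.2 and 84.5, and Csf1r, the macrophage growth factor receptor, had 384.1, 125.0 and 40.9, while Itgam, an integrin chain of myeloid cells, was below the floor on each. The other Csf1r probe sets had 127.9, 120.2 and 38.7, and 58.2, 88.5 and 46.3. Against CL4-TCR, 4 of 8 measured markers were counted as higher in VILLIN-HA/CL4-TCR cells: Lyz2, Csf1r, C1qb and Tyrobp. In Villin-HA + CL4-TCR cells 4 of 8 were counted as higher than in CL4-TCR cells: Lyz2, Csf1r, Cd68 and Tyrobp. None was lower in either comparison, and the median log2 differences were 0.82 and 1.19. The list did not move as one in VILLIN-HA/CL4-TCR against Villin-HA + CL4-TCR cells: of 10 measured markers Lyz2, Csf1r and C1qb were counted as higher and Cd68 as lower (49.1 against 106.3), Tyrobp had 71.6 against 99.2 and Adgre1 40.1 against 64.6, and the median log2 difference was -0.14. Their part in the Nrp1 signal was not tested. B cell markers, 6 of which were found, had summed signals of 641.7, 406.5 and 310.5 in the same order. Of these, Ms4a1 and Cd22 were counted as higher in VILLIN-HA/CL4-TCR cells than on each other array. Cd79b was highest in Villin-HA + CL4-TCR cells (199.1, 233.1 and 110.5), and Cd79a was below the floor throughout. Dendritic and endothelial cells are also known to carry Nrp1. Of 9 dendritic cell markers found, 5 were measured in VILLIN-HA/CL4-TCR against CL4-TCR cells and 3 against Villin-HA + CL4-TCR cells. None of those measured was counted as higher in VILLIN-HA/CL4-TCR cells by its chosen probe set. Zbtb46 and Cd209a passed the floor in CL4-TCR cells alone, so they could not be counted as higher. Ccr9 was 1.82-fold higher than in CL4-TCR cells by its chosen probe set. Other Ccr9 probe sets gave log2 differences of 1.51, 1.08 and 1.03, and another gave -1.08. Itgax (43.5, 430.7 and 38.9 in the same order) and Bst2 were counted as lower in VILLIN-HA/CL4-TCR cells than in Villin-HA + CL4-TCR cells. Siglech of plasmacytoid dendritic cells was below the floor on all arrays. All 8 endothelial markers were below the floor in VILLIN-HA/CL4-TCR cells and in CL4-TCR cells, with 1 of 8 above it in Villin-HA + CL4-TCR cells. The part of these cell types in the Nrp1 signal was not tested. In bulk RNA, fewer cells of a type and less RNA per cell cannot be told apart.

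The sequence upstream of Nrp1 is shown as the member with the highest gain in VILLIN-HA/CL4-TCR cells, beside those of Sema7a, which was also higher there, and of Sema4a, which was lower. Each run is the 250 bases before a RefSeq transcript start (GRCm38.p6), 5′ to 3′ in the direction of transcription, and for Sema4a, with 4 listed starts, the one farthest upstream.
Nrp1, chr8:128358823-128359072, plus strand: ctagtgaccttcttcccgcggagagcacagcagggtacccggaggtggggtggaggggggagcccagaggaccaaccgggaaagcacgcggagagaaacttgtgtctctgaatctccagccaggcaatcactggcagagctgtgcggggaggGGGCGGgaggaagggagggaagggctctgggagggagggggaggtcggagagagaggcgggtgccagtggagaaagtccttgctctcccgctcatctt
Sema7a, chr9:57939862-57940111, plus strand: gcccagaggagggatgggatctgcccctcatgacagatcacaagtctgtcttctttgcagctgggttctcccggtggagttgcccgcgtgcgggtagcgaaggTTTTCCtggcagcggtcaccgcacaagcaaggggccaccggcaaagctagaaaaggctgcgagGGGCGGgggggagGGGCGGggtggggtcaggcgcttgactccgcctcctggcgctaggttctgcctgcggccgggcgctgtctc
Sema4a, chr3:88461183-88461432, minus strand: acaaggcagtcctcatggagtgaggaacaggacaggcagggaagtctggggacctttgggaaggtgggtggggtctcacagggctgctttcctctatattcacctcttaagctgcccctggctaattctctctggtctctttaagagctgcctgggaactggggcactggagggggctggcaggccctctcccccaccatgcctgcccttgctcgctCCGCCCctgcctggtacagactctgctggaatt
Capitals mark matches on either strand to GGGCGG (GC box), TGANTCA (AP-1), TGACGTCA (CRE), GGAAAA (the NFAT core) or GCGNGGGCG (Egr), of which AP-1, NFAT and Egr factors act downstream of the T cell receptor. The Nrp1 window held 1 GC box and none of the other motifs, the Sema7a window 2 GC boxes and 1 NFAT core, and the Sema4a window 1 GC box. All 7 genes were found in the promoter table, with 13 windows, of which 10 held a GC box, 2 an NFAT core, 1 an AP-1 motif, and none a CRE or Egr motif. Of all 32851 windows of the same length, 32.7% held a GC box, 20.4% an NFAT core, 6.75% an AP-1 motif, 1.55% a CRE and 4.70% an Egr motif. A match describes these letters only.

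Nrp2, the second neuropilin and a co-receptor for class 3 semaphorins and VEGF-C, gave almost no signal. Its 4 probe sets had signals from 2.4 to 34.6 over the 3 arrays, 1 of the 4 was below the floor everywhere, and the others passed it on a single array each. The chosen probe set had 12.3 in VILLIN-HA/CL4-TCR cells, 32.7 in Villin-HA + CL4-TCR cells and 14.9 in CL4-TCR cells, so no order is given. Plxnd1, a plexin that pairs with neuropilins and binds Sema3e and Sema4a, had 39.6 in VILLIN-HA/CL4-TCR cells, 13.7 in Villin-HA + CL4-TCR cells and 15.9 in CL4-TCR cells by its only probe set. It passed the floor in VILLIN-HA/CL4-TCR cells alone, at least 1.25-fold above each of the others. With the floor at the 35th percentile, Plxnd1 would be counted as higher there against both (log2 difference at least 1.27).

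Sema4a is a membrane semaphorin that costimulates T cells and a ligand of Nrp1 on regulatory CD4 T cells. It ran opposite to Nrp1 in VILLIN-HA/CL4-TCR against CL4-TCR cells. In Villin-HA + CL4-TCR against CL4-TCR cells Sema4a was lower too, while Nrp1 stayed short of 2-fold. The chosen Sema4a probe set, 1438934_x_at, had signals of 348.9 in VILLIN-HA/CL4-TCR cells, 115.6 in Villin-HA + CL4-TCR cells and 1512 in CL4-TCR cells. Probe set 1448110_at had 137.3, 127.1 and 1206. Both place CL4-TCR far above the HA arrays, and they differ in VILLIN-HA/CL4-TCR cells. VILLIN-HA/CL4-TCR was 4.33-fold lower than CL4-TCR by the chosen probe set (log2 difference -2.12) and 8.78-fold lower by the other (-3.13). Villin-HA + CL4-TCR was 13.1-fold and 9.49-fold lower (-3.71 and -3.25), and only 6 of 12196 measured genes had a lower log2 difference than the chosen probe set. The call of Sema4a as lower against CL4-TCR held under all 7 alternative settings in both comparisons.

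Between the HA arrays the Sema4a probe sets disagreed. VILLIN-HA/CL4-TCR was 3.02-fold above Villin-HA + CL4-TCR by 1438934_x_at (log2 difference 1.59), a probe set whose suffix marks possible matches to other transcripts, and the ratio was 1.08 by 1448110_at (0.11). The pooled SD between probe sets of 1 gene was 0.61 in this comparison. The call ended when such probe sets were left out (0.11) or all probe sets of a gene were averaged (0.85).

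Sema4b and Sema4d, the other class 4 members, were likewise highest in CL4-TCR cells, with smaller differences. Sema4d, known as CD100, is abundant on resting T cells and binds plexin B1 and, on B cells, CD72. Its chosen probe set had signals of 806.3 in VILLIN-HA/CL4-TCR cells, 1042.5 in Villin-HA + CL4-TCR cells and 1579.7 in CL4-TCR cells, and the groups differed by ratios of 1.96 (VILLIN-HA/CL4-TCR lower than CL4-TCR, log2 difference -0.97) and 1.52 (Villin-HA + CL4-TCR lower, -0.60). A dimmer probe set had 37.8, 26.1 and 50.2, and the third was below the floor everywhere. Sema4d therefore stayed short of 2-fold in each comparison, and it passed it against CL4-TCR in VILLIN-HA/CL4-TCR cells after quantile normalization (-1.02).

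Sema4b, a class 4 semaphorin also made by T cells, had 112.4 in VILLIN-HA/CL4-TCR cells, 58.6 in Villin-HA + CL4-TCR cells and 187.9 in CL4-TCR cells by its chosen probe set. Villin-HA + CL4-TCR was 3.21-fold lower than CL4-TCR (log2 difference -1.68), and VILLIN-HA/CL4-TCR was lower by a ratio of 1.67 (-0.74), short of 2-fold. Its second probe set was below the floor on every array, so the direction rests on 1 probe set, and the average of both gave -0.84 for Villin-HA + CL4-TCR cells. Between the HA arrays, VILLIN-HA/CL4-TCR was above Villin-HA + CL4-TCR by a ratio of 1.92 (0.94), which became 1.20 on the log2 scale with arrays scaled to the same median and 1.09 after quantile normalization. All 5 class 4 probe sets above the floor, of Sema4a, Sema4b and Sema4d, had their highest signal in CL4-TCR cells.

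Sema7a, a lipid-anchored semaphorin of activated T cells that binds α1β1 integrin on macrophages and plexin C1, was higher on both HA arrays. Its chosen probe set had 113.1 in VILLIN-HA/CL4-TCR cells, 133.1 in Villin-HA + CL4-TCR cells and 31.1 in CL4-TCR cells, so CL4-TCR lay just under the floor. The HA arrays were at least 3.57-fold and at least 4.20-fold higher, and they differed from each other by a ratio of 1.18 (VILLIN-HA/CL4-TCR the lower, log2 difference -0.23). The other probe set of Sema7a, at 17.0, 20.2 and 8.9, stayed below the floor, in the same order of arrays. A floor at the 65th percentile left log2 differences against CL4-TCR of at least 0.72 and at least 0.96, short of 2-fold, and averaging both Sema7a probe sets left 0.92 for VILLIN-HA/CL4-TCR, also short of it.

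**Figure D2:**
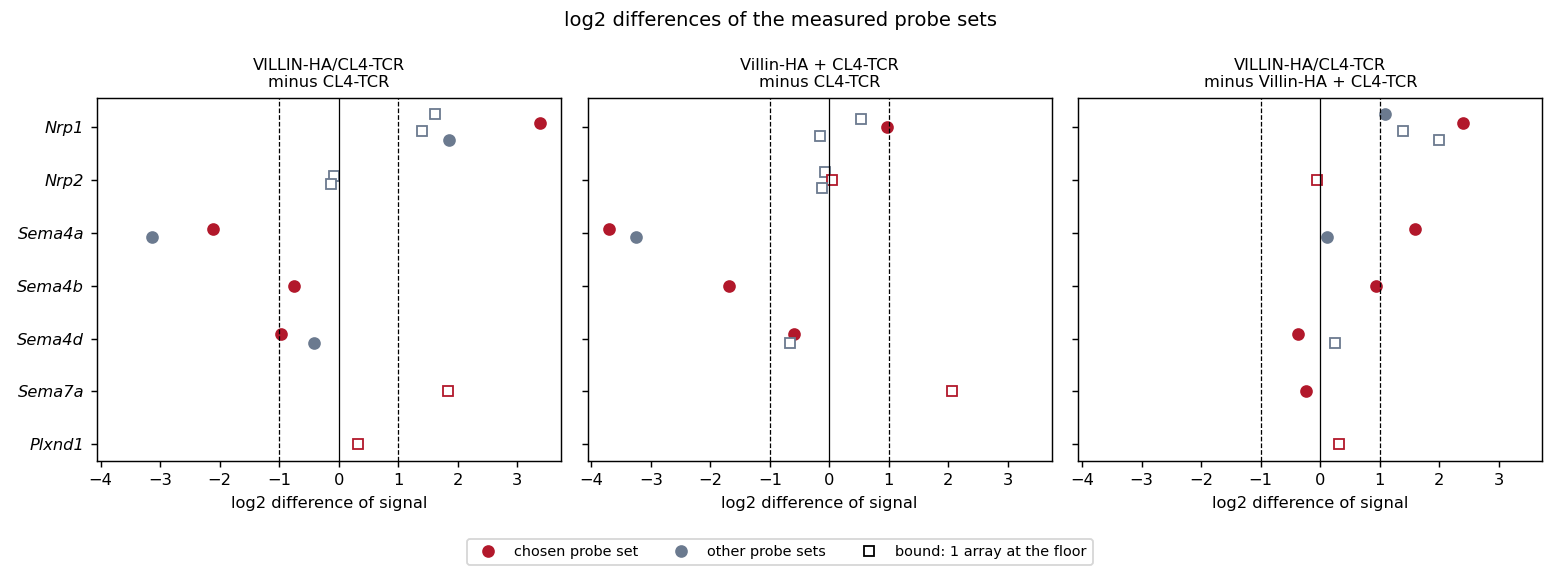
log2 differences of signal for every measured probe set of the 7 genes in the 3 comparisons, first-named array minus second. Filled circles are probe sets with both values above the floor, open squares are bounds with 1 array at the floor, red marks the chosen probe set and dashed lines mark 2-fold. Nrp1 lies right of 2-fold by all 4 probe sets in VILLIN-HA/CL4-TCR cells against each of the others, and Sema4a left of -2 on both HA arrays against CL4-TCR.

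The remaining genes of the pathway were taken as 5 lists with 80 names, of which 78 were found: other semaphorins, other plexins, other semaphorin receptors, VEGF and further neuropilin ligands with the VEGF receptors, and signalling partners. Against CL4-TCR, 1 of 46 measured genes was higher and 5 lower in VILLIN-HA/CL4-TCR cells, with a median log2 difference of -0.19 beside -0.04 over all measured genes. In Villin-HA + CL4-TCR cells 4 of 53 were higher and 4 lower, with a median of 0.36 beside 0.06. With VILLIN-HA/CL4-TCR set against Villin-HA + CL4-TCR, none of 52 was higher and 7 were lower, with a median of -0.37 beside -0.06. The shares counted, 13.0%, 15.1% and 13.5%, lie near or below those over all genes.

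Among ligands, Sema4f, a further class 4 semaphorin, had signals of 371.6 in VILLIN-HA/CL4-TCR cells, 513.1 in Villin-HA + CL4-TCR cells and 1157 in CL4-TCR cells. It was 3.11-fold lower in VILLIN-HA/CL4-TCR cells and 2.26-fold lower in Villin-HA + CL4-TCR cells than in CL4-TCR cells, with another probe set at log2 differences of -0.99 and -0.28. Sema4c went the other way short of 2-fold, with 73.0, 84.7 and 45.4. Of the secreted class 3 semaphorins, the usual ligands of neuropilins, only Sema3b and Sema3f passed the floor on any array by their chosen probe sets. By 1438947_x_at, whose suffix marks possible matches to other transcripts, Sema3f was 2.90-fold lower in VILLIN-HA/CL4-TCR cells than in Villin-HA + CL4-TCR cells (35.9 against 104.1). Probe set 1420508_at went the other way, at least 1.29-fold higher in VILLIN-HA/CL4-TCR cells (41.0 against 6.0), so the direction of Sema3f is not settled. Vegfa and the Sema4a receptor gene Timd2 were below the floor on all 3 arrays, and Tgfb1, whose latent product binds Nrp1, had 71.2, 53.4 and 79.1.

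Among receptors, Plxnc1, the plexin of Sema7a, had 445.1 in VILLIN-HA/CL4-TCR cells, 322.6 in Villin-HA + CL4-TCR cells and 250.6 in CL4-TCR cells, with log2 differences against CL4-TCR of 0.83 and 0.36, short of 2-fold. Plxnc1 probe set 1450905_at, of almost the same brightness, had 440.5, 299.3 and 124.8 and passed 2-fold on both HA arrays (1.82 and 1.26), as did 1450906_at with bounds of at least 1.37 and at least 1.02. Plxnb1, the high-affinity receptor of Sema4d, had 49.5, 43.4 and 107.9 and was 2.18-fold and 2.49-fold lower on the HA arrays, while its other measured probe set gave log2 differences of -0.02 and -0.15. Itga1, the α1 chain of the integrin that Sema7a binds, had 17.0, 91.9 and 3.2 and was at least 2.90-fold higher in Villin-HA + CL4-TCR cells than on either other array. Muscle, stromal and neutrophil transcripts were also highest on that array: the summed signal of 6 skeletal muscle genes was 4944 there against 109.4 in VILLIN-HA/CL4-TCR cells and 79.9 in CL4-TCR cells, that of 8 stromal genes was 938.2 against 151.2 and 154.3, and that of 4 neutrophil genes was 1122 against 67.8 and 75.9. Their part in the values of Itga1 and other genes of that array was not tested.

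Among signalling partners, most of the abundant ones differed by less than 2-fold by their chosen probe sets: Rap1a and Rap1b, small GTPases on which plexins act, the actin regulators Rac1, Rhoa and Cfl1, the kinase Fyn, the actin oxidase Mical1 and Ranbp9 stayed short of it in every comparison, while Rras2 and Dpysl2, also abundant, did not. Dimmer probe sets of Rhoa, Rap1a, Rap1b and Cfl1 passed 2-fold in part of the comparisons, the widest being Rhoa 1450632_at at 157.5 in VILLIN-HA/CL4-TCR cells, 1103.8 in Villin-HA + CL4-TCR cells and 341.2 in CL4-TCR cells. Tiam1, an exchange factor that activates Rac, was higher on both HA arrays at 114.2 in VILLIN-HA/CL4-TCR cells and 80.9 in Villin-HA + CL4-TCR cells against 36.4 in CL4-TCR cells (3.14-fold and 2.22-fold). Rras2, a Ras-family GTPase, was lower on both at 455.0 and 409.3 against 1069, although another probe set gave a log2 difference of 0.72 for Villin-HA + CL4-TCR. Gipc1, an adaptor that binds the cytoplasmic end of Nrp1, was lowest where Nrp1 was highest, at 34.7 in VILLIN-HA/CL4-TCR cells, 137.8 in Villin-HA + CL4-TCR cells and 79.9 in CL4-TCR cells (2.30-fold lower than in CL4-TCR cells and 3.97-fold lower than in Villin-HA + CL4-TCR cells).

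The other counted partners each passed 2-fold in part of the comparisons. Fes, a kinase that acts below plexin A, was 4.49-fold higher in Villin-HA + CL4-TCR cells than in CL4-TCR cells, Dpysl2, the collapsin response mediator, was 2.17-fold higher, and Gsk3b, a kinase that acts on Dpysl2, was 2.15-fold lower, its 6 measured probe sets running from -1.11 to 0.28 on the log2 scale. Cdk5, another kinase of Dpysl2, was 3.51-fold lower, Fes 2.89-fold, the GTPase gene Rras 2.58-fold and the semaphorin Sema6c 2.02-fold lower in VILLIN-HA/CL4-TCR cells than in Villin-HA + CL4-TCR cells.

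**Figure D3:**
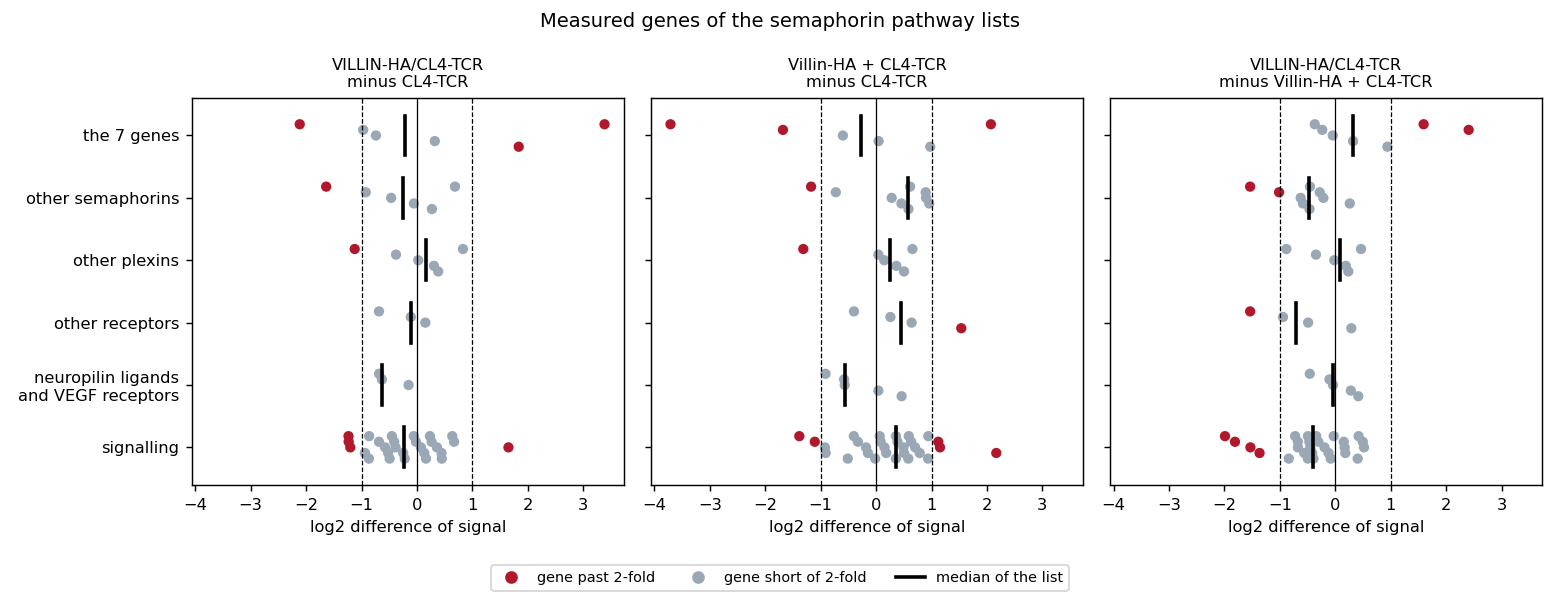
log2 differences of signal of each measured gene among the 7 members and the 5 pathway lists, in the 3 comparisons, first-named array minus second. Red points passed 2-fold (dashed lines), grey points did not, and black bars are list medians. Among the genes drawn, the largest differences in the first and second comparisons are those of Nrp1 and Sema4a, 3.38 and -3.71.

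The genes whose 3 signals most resembled those of Nrp1 and Sema4a were sought among 10504 genes above the floor on at least 2 arrays, by Euclidean distance of the log2 signals centred on each gene's mean. Nearest to Nrp1 were Marcks (distance 0.29), 1110032F04Rik (0.32), Basp1 (0.37), Egr3 (0.42) and Trpm1 (0.49). Marcks and Basp1 encode acidic membrane proteins that organise actin, and Egr3 is a transcription factor induced by T cell receptor signals. Marcks had signals of 657.0 in VILLIN-HA/CL4-TCR cells, 113.9 in Villin-HA + CL4-TCR cells and 47.8 in CL4-TCR cells, with 4 of its 6 probe sets above the floor highest in VILLIN-HA/CL4-TCR cells, and Egr3 had 2276, 538.1 and 329.4, with 1 of 2.

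Nearest to Sema4a were Prag1 (0.12), Gm11346 (0.18), Atp1b1 (0.30), Lypd6b (0.32) and Eomes (0.41). Eomes, a T-box factor of memory and effector CD8 T cells, had 184.6 in VILLIN-HA/CL4-TCR cells, 91.4 in Villin-HA + CL4-TCR cells and 992.6 in CL4-TCR cells, and Atp1b1, a subunit of the sodium pump, had 692.0, 223.2 and 2298. All 5 probe sets of Atp1b1 and both of Eomes were highest in CL4-TCR cells, as was 1 of 2 of Prag1. A match over 3 arrays is a description of these values.

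**Figure D4:**
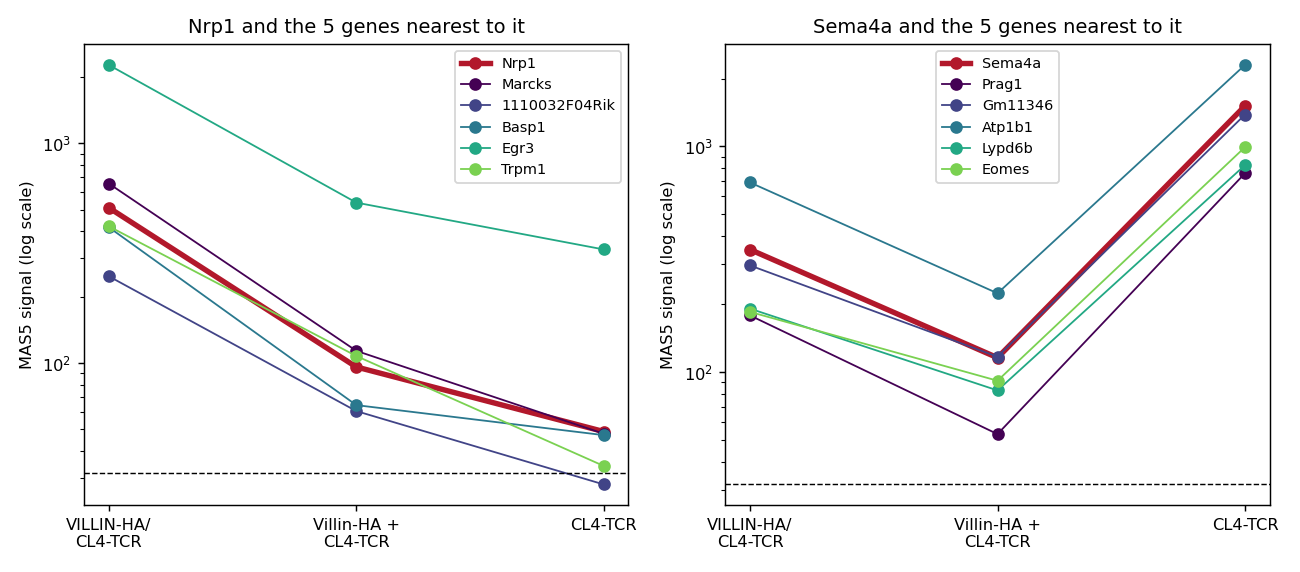
MAS5 signal (log axis) on the 3 arrays of Nrp1 and Sema4a (thick red) and of the 5 genes nearest to each. Lines join the values of 1 chosen probe set and the dashed line is the floor. Nrp1 and its neighbours are highest in VILLIN-HA/CL4-TCR cells, and Sema4a and its neighbours are lowest in Villin-HA + CL4-TCR cells and highest in CL4-TCR cells.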

How the data were processed

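CD8 T cells from tissue labelled MLN were measured on 3 one-colour Affymetrix arrays, 1 per group, with biotin-labelled cRNA from 6 µg of total RNA per the labels' protocols. The deposited intensity values are MAS5 signals made by the authors, per the submitters' processing notes, which name no version. The trimmed mean (2% at each end) was 150 on each array, which hides any shift common to most transcripts. The sources used here give no background settings, and detection calls were not used here.

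Probe sets were named through the platform annotation, with symbols updated by Entrez identifier to the GRCm38.p6 RefSeq table (34754 of 34958 probe sets with 1 symbol). Another 932 probe sets had several symbols and 9211 none, and neither named a gene. Each gene was read by its brightest probe set, on average over the arrays. Signals below 31.7 were raised to it before log2, and a gene was counted at 2-fold. A fold against a value at the floor is a lower bound, written as at least that size. With 1 array per group no p-value, SD between samples or standard error exists, and precision is limited by the number of arrays. The SD between probe sets of a gene covers probe effects, not animals or sorts.

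Genes named were all members, the 8 pathway genes with the largest counted difference in each comparison, bright pathway genes (the top 20% by signal), marker genes beside a result and the 5 nearest patterns of Nrp1 and Sema4a. Sema3b, Sema4c, Plxnc1, Timd2, Vegfa and Tgfb1 fall outside this rule and were named after their values were seen, for their known ties to the members. A further pathway result is not reported here. Members, lists and rules were chosen with earlier results of these data known. The 7 alternatives varied the floor, scaling and probe set choice. The calling steps were tested on simulated data with changes put into bright genes only. That test does not cover calls of dimmer genes such as Nrp1, Sema4b and Sema7a. Python 3.11.15, numpy 2.4.6, pandas 2.3.3 and matplotlib 3.10.9 were used.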

Additional observations from a re-analysis of the deposited data

How the results depend on the processing

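The calls of Nrp1 as higher in VILLIN-HA/CL4-TCR cells, against CL4-TCR (log2 difference 2.06 to 3.44) and against Villin-HA + CL4-TCR (1.73 to 2.67), and of Sema4a as lower on both HA arrays than on CL4-TCR (-3.13 to -2.06 for VILLIN-HA/CL4-TCR, -3.92 to -3.25 for Villin-HA + CL4-TCR), held under all 7 alternatives. Over all members, 116 of 127 values under alternatives kept their call, 11 changed it, and no counted value changed sign. For VILLIN-HA/CL4-TCR against Villin-HA + CL4-TCR, 1 member (Nrp1) was counted in place of 2 with the mean of all probe sets or with less specific probe sets left out, both of which alter the Sema4a signal by construction. Pathway counts moved more. For VILLIN-HA/CL4-TCR against CL4-TCR the 6 counted of 46 measured genes became 3 of 31 under a floor at the 65th percentile. With the mean of all probe sets they became 2 of 46. Over all measured genes the share counted was 14.1% in the main setting, then 13.2% and 9.51%. For Villin-HA + CL4-TCR against CL4-TCR the 8 of 53 became 17 of 64 under a floor at the 35th percentile and 5 of 34 at the 65th. They became 13 of 53 with no floor and log2(signal + 16), and 1 of 53 with the mean of all probe sets. The share over all measured genes was 21.4% in the main setting, then 25.4%, 20.7%, 24.5% and 14.0%. For VILLIN-HA/CL4-TCR against Villin-HA + CL4-TCR the 7 of 52 became 13 of 64 under a floor at the 35th percentile. With no floor they became 11 of 52, and with the mean of all probe sets 4 of 52. The share over all measured genes was 15.1% in the main setting, then 20.1%, 18.1% and 9.02%. A lower floor brings in dimmer genes and a higher one leaves them out, by construction. The mean over probe sets includes those at the floor on both arrays, which show no difference by construction. The cause of the other moves was not tested. Scaling the arrays to the same median moved the median of all genes to -0.14 between Villin-HA + CL4-TCR and CL4-TCR, in place of 0.06, and to 0.19 in place of -0.06 for VILLIN-HA/CL4-TCR against Villin-HA + CL4-TCR. No paired analysis was possible because each group holds 1 array. Signals near the floor of 31.7 limit Nrp2, Plxnd1 and Sema7a on CL4-TCR. Nrp1 is limited there too, at 48.9 by its chosen probe set and 35.2, 27.1 and 16.1 by the others. With the floor at the 65th percentile its log2 difference in VILLIN-HA/CL4-TCR against CL4-TCR cells was at least 2.89, in place of 3.38.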
